A study of Mus musculus with 28 samples.

Results

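Crystallins are the major soluble proteins of the lens, and several are also made in the retina. The alpha crystallins Cryaa and Cryab are small heat shock proteins that hold unfolding proteins in solution, whereas the beta and gamma crystallins form a separate superfamily of structural proteins built from Greek key motifs. In the lens their genes are switched on by factors such as PAX6, SOX2 and the large MAF proteins, and Cryab is in addition a stress-responsive gene of many tissues, glia included. Müller cells are the radial glia that span the retina, and ATAC-seq marks stretches of their DNA that the transposase Tn5 can reach, as at active promoters and enhancers.

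The genes examined here were 10 of the 21911 protein-coding genes of GENCODE M21: Cryaa and Cryab (alpha), Cryba1, Cryba2, Cryba4, Crybb1, Crybb2 and Crybb3 (beta), and Crygs and Crygn (gamma). Every accessible region overlapping 1 of these genes or 10 kb to either side was taken, which gave 14 of 46189 regions in control and 22 of 64883 in db/db Müller cells. The cells came from 6-month-old control mice (labelled WT) and from db/db mice of the same age, which are diabetic because both copies of the leptin receptor gene Lepr carry the db mutation. The study's colony was on the BKS background, with animals of both sexes, and its methods count heterozygous db/+ animals among the controls as well. The cells were isolated from digested retina by magnetic sorting for CD29 after CD11b and CD31 positive cells had been removed, a gate that astrocytes can also pass. Of 2 replicates per genotype, the peak list attached to replicate 1 was analysed, 1 list per genotype, so no difference between the genotypes has a replicate check and none was tested. In such a bulk preparation, fewer cells with an open site and less opening per cell cannot be told apart.

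Signal means the fold enrichment of a region at its summit, and its percentile is its rank among all regions of the same list, where 100 would be the strongest. A region was called shared when at least 1 bp of it was also covered by a region in the other genotype. Coordinates are those of GRCm38 (mm10).

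The promoters printed below are the 3 that were covered by a region among the 9 members in the RefSeq table (all but Cryab), plus that of Cryba1, the 1 gene without any region in control cells. They are the bases that precede the RefSeq start on GRCm38.p6, 5′ to 3′, without bases that GENCODE counts as UTR. Capitals mark matches, on either strand, to a TATA box (TATAAA), a MAF half-site (TGCTGA), a SOX core (ACAAT), an AP-1 site (TGANTCA) or a heat shock element (GAANNTTC or TTCNNGAA). The Crybb1 promoter, chr5:112255570-112255814 on the plus strand, was covered by a region in both lists, as was that of Crybb3, chr5:113081585-113081834 on the minus strand. The stretch for Crygn, chr5:24758009-24758098 on the minus strand, was covered in db/db only, and that of Cryba1, chr11:77725294-77725543 on the minus strand, in neither.
Crybb1: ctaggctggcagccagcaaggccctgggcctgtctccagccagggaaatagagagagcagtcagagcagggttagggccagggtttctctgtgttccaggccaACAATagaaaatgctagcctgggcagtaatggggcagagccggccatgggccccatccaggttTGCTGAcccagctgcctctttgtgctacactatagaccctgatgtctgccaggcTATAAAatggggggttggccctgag
Crybb3: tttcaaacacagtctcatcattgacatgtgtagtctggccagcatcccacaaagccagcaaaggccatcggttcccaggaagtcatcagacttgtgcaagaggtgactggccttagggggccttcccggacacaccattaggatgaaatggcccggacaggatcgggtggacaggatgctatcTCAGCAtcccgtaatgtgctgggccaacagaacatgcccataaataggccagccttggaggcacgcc
Crygn: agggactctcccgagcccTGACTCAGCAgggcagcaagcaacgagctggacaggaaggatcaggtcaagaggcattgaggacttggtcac
Cryba1: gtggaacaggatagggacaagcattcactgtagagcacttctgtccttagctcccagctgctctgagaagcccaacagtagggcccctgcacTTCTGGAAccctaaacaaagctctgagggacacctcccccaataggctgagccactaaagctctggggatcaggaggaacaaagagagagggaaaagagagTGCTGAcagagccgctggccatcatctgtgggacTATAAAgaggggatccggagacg

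In the full 250 bases before the start, a MAF half-site was found in 8 of the 9 matched crystallin promoters, all but that of Crybb2, compared with 16.1% of the 32851 promoters in the table. In Crybb1 it lay 84 to 79 bases before the start, in Crybb3 67 to 62 bases and in Cryba1 57 to 52 bases. Cryba4 held 3 such matches. In Crygn and Crygs the MAF half-site overlapped an AP-1 site, as in the run TGACTCAGCA of the Crygn promoter. The promoters therefore shared these letters whether or not a region covered them: of the 8 genes with a match, Crybb1 and Crybb3 had a region over the promoter in both lists, Crygn in db/db and the other 5 in neither.

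Further motifs were spread over fewer members. A TATA box was present in Crybb1, Cryba1 and Crygs (3 of 9, against 12.4% of all promoters) and a SOX core in Cryaa, Crybb1, Crybb2 and Crygs (4 of 9, against 27.7%). Of the 9 promoters searched, that of Cryba1 held the heat shock element (1 of 9, against 12.8%). AP-1 sites were found in Cryba2, Crygn and Crygs (3 of 9, against 6.75%). Cryba2 also held a glucocorticoid receptor site (ACANNNTGT, 1 of 9, against 5.84%), and Crygs a CRX core (GGATTA, 1 of 9, against 6.25%). None of the 9 had an NFI half-site (TTGGCA), which 12.3% of all promoters contained. These are matches of letters and say nothing of whether a factor was bound.

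More of the crystallin genes had a region within 10 kb than had one at a promoter. In control cells 9 of the 10 genes had a region within 10 kb, where 73.7% of all coding genes did, and in db/db cells 10 of 10 did, where the share of all coding genes was 77.1%. Within 1 kb of a transcript start, Cryab, Crybb1, Crybb3 and Crygn had a region in both lists. These 4 of 10 compare with 59.4% of coding genes in control and 62.5% in db/db. With only 10 genes, some of them neighbours, the differences from the shares of all coding genes were not tested. Cryaa, Cryba1, Cryba2, Cryba4, Crybb2 and Crygs had none in either list. The promoter regions that were present ranked at a median percentile of 56.0 in control and 69.7 in db/db, against 78.0 and 80.7 for all coding genes with such a region. The crystallin genes are short, with a median span of 6200.5 bp against 17433 bp for all coding genes, and had a median of 1.5 regions in control and 2.5 in db/db, against 2 in each list for all coding genes and 1 in each for those no longer than the longest member.

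**Figure D1:**
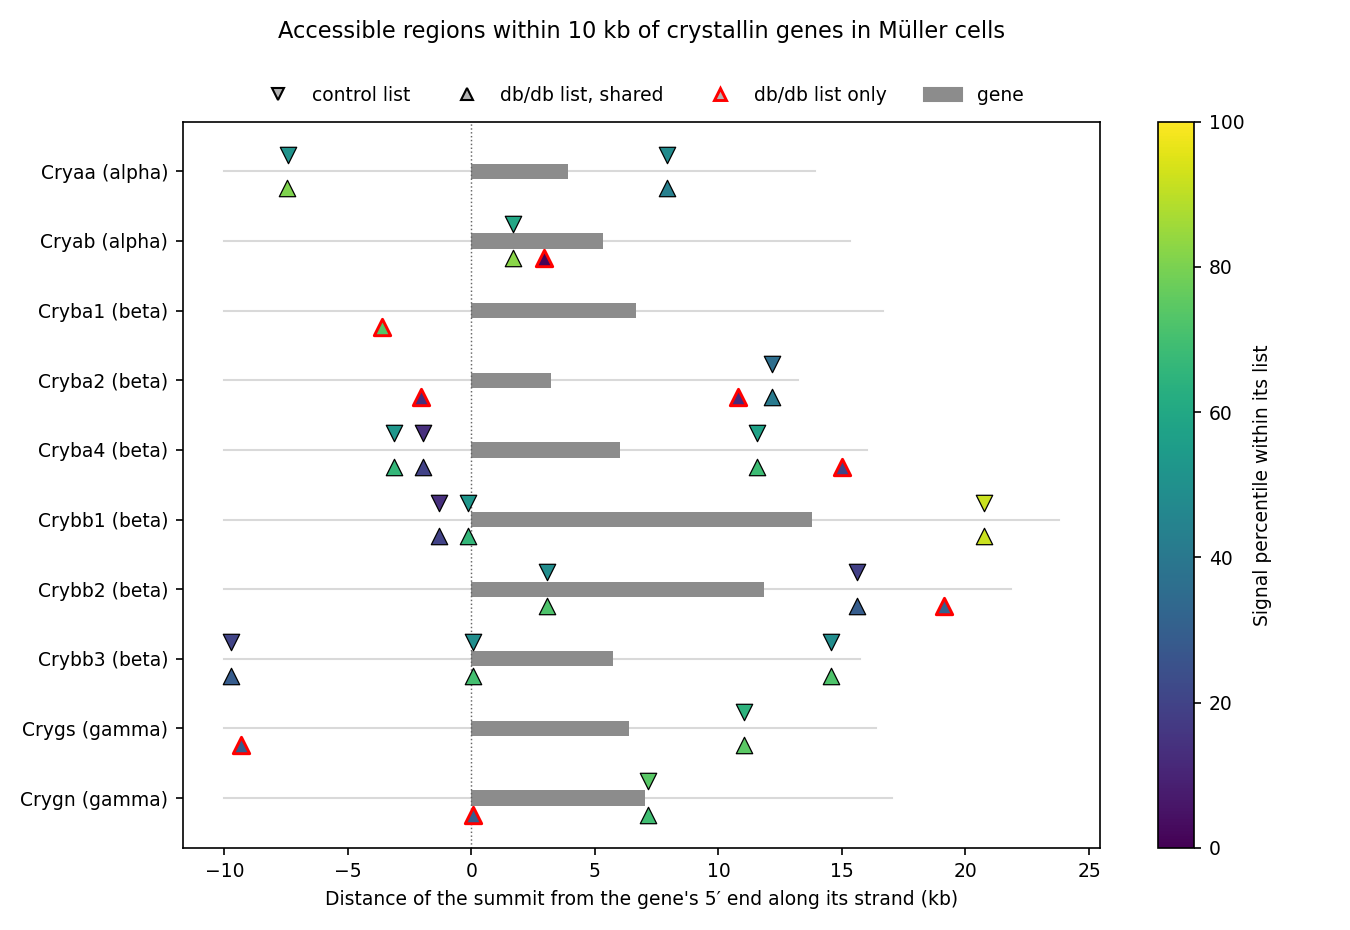
Position of each region's summit relative to the 5′ end of the gene, in kb along the gene's strand, for the control list (downward triangles) and the db/db list (upward triangles), coloured by signal percentile. Grey bars are the genes and thin lines their 10 kb flanks; red outlines mark the 8 regions found in db/db only, and regions within reach of neighbouring genes are drawn in both rows.

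The 2 alpha crystallin genes had 3 regions in control and 4 in db/db. Cryaa (chr17:31677807-31681733, plus strand), the lens chaperone alphaA-crystallin, had no region at its promoter but an intergenic one on each side. The upstream region, chr17:31670013-31670588, had its summit 7444 bp before the gene and went from percentile 51.2 (signal 10.8) in control to 80.7 (signal 13.7) in db/db. The downstream region, chr17:31685543-31686562, held 3 summits in control, the strongest 3979 bp past the gene, and went from percentile 47.8 (signal 10.3) to 43.0 (signal 7.84). The ranks on the 2 sides of the same gene thus differed in opposite directions.

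Cryab (chr9:50751325-50756636, plus strand) encodes alphaB-crystallin, the member best known outside the lens. Its promoter region, chr9:50752396-50753574, peaked in a UTR 13 bp from an annotated start and lay within 1 kb of the start of Hspb2, a small heat shock gene that shares this promoter head to head. It went from percentile 59.5 (signal 11.9) to 82.1 (signal 14.1). At 82.1 it was the highest-ranked region of a crystallin gene's own promoter in either list. A further intronic region in db/db, chr9:50753919-50754411, was 344 bp from the nearest control region. With a signal of 2.96, at percentile 1.06, it was the weakest of the 22 by signal, though its −log10 q of 35.9 was not the lowest. Its summit lay 146 bp from another annotated start of Cryab, so it also counted as within 1 kb of a transcript start.

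The 6 beta crystallin genes had 9 control and 14 db/db regions, and all but Cryba1 had at least 1 in control. On chromosome 5 lie 5 of the 10 genes, 4 of them beta, and there Cryba4 and Crybb1 stand head to head and Crybb2 and Crybb3 side by side, so some of their 10 kb windows overlap. Crybb1 (chr5:112255815-112269585, plus strand), a lens beta crystallin, had its promoter region at chr5:112255145-112256105, with the summit 145 bp before the gene in control and 161 bp before it in db/db. Its percentile was 52.5 in control (signal 10.9) and 66.1 in db/db (signal 10.8). A weaker neighbour between Crybb1 and Cryba4, chr5:112254083-112254779, had percentiles of 13.4 and 19.9. The strongest region in reach of any member, chr5:112276142-112277017 at percentile 92.1 in both lists, was the promoter of Tpst2, a tyrosylprotein sulfotransferase gene downstream of Crybb1.

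Crybb3 (chr5:113075839-113081584, minus strand) had its promoter region, chr5:113080852-113081877, peaking in an exon 61 bp inside the gene. This went from percentile 48.9 (signal 10.5) to 69.9 (signal 11.5). Crybb2 (chr5:113058258-113070117, minus strand), a beta crystallin also known from the retina, had no promoter region, but an intronic one, chr5:113066547-113067322, 1415 bp from its nearest start. That intronic region went from percentile 48.5 (signal 10.4) to 72.1 (signal 11.9), a change close to that of the Crybb3 promoter, and lies within 10 kb of Crybb3 as well. The outer regions of the pair were weak. The one past the 3′ end of Crybb2, chr5:113054353-113054662, had percentiles of 18.8 and 29.1, and the one upstream of Crybb3, chr5:113091107-113091643, in an intron of 2900026A02Rik, 20.1 and 28.9.

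Cryba4 (chr5:112246493-112252518, minus strand) had a region of its own past its 3′ end, chr5:112240641-112241206, at percentiles of 57.8 in control and 68.4 in db/db. Cryba2 (chr1:74889934-74893143, minus strand) had 1 control region, chr1:74880847-74881124, which was 8949 bp past the gene and nearer to the start of Fev, an ETS factor gene of serotonergic neurons, at 3623 bp. It was at percentile 35.6 in control and 40.7 in db/db. Cryba1 (chr11:77718615-77725283, minus strand), whose product betaA3/A1-crystallin is also known from retinal pigment epithelium and astrocytes, had no control region within 10 kb.

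The 2 gamma genes had 2 control and 4 db/db regions. Crygs (chr16:22805203-22811577, minus strand), a crystallin of the late lens fibre, had a region 4668 bp past its 3′ end, chr16:22800150-22801002, at percentiles of 64.2 (signal 12.6) and 74.5 (signal 12.3). Crygn (chr5:24751003-24758008, minus strand), whose product has features of both the beta and the gamma family, had one at chr5:24750688-24751633, with the summit 140 bp past the 3′ end of the gene. That region had its summit 7145 bp from the 5′ end of the gene. It counted as a promoter region only because a further, short transcript of Crygn starts 461 bp from the summit. It was at percentile 74.0 (signal 14.3) in control and 69.4 (signal 11.4) in db/db. When only the 5′ end of each gene counted, control cells had a promoter region at Crybb1 and Crybb3, and db/db cells also at Cryab, where the region just reached the 1 kb window, and at Crygn.

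All 14 control regions were present in db/db, 0 absent, which allows a share of up to 21.4% (3 counts of 14, counting error only); over the whole list 4.16% of control regions were absent from db/db. Conversely, 8 of the 22 db/db regions, 36.4% (95% Wilson interval 19.7 to 57.0), had no partner in control, beside 31.3% over the whole db/db list. The share at crystallin genes was therefore close to that of the list. Cryab had 1 of these regions, the beta genes 5 and the gamma genes 2. The summits of shared regions differed by a median of 3 bp and at most 18 bp between the lists.

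Most of the db/db-only regions were weak, and the one at Cryba1 was not. The 20324 db/db-only regions of the list had a median percentile of 23.5, and 4 of the 8 at crystallin genes were below it. The Cryba1 region, chr11:77728498-77729147, was at percentile 73.2 with a signal of 12.1, in an intron of the neighbouring gene Nufip2 and 3626 bp upstream of Cryba1. Of all db/db-only regions 1.98% ranked as high or higher, and the nearest control region was 8199 bp away. At the 5′ end of Crygn, chr5:24757608-24758232, a db/db-only region covered the promoter printed above, with its summit 81 bp inside the gene, at percentile 29.5 (signal 6.51). The others were chr16:22820805-22821093 in an intron of Tbccd1 upstream of Crygs (percentile 29.5), chr5:113050425-113051301 past Crybb2 (30.7) and chr5:112237302-112237842 past Cryba4 (20.3). Near Cryba2, chr1:74882112-74882638 in the coding sequence of Fev was at percentile 11.8 and chr1:74895038-74895384, upstream of the gene, at 13.1.

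The db/db list is longer, so each genotype was also reduced to the same number of regions, the 46189 with the smallest p-values. Of the 8 db/db-only regions the ones at Cryba1 and past the 3′ end of Crybb2 remained, 2 of 8, whereas 13 of the 14 shared ones did. Regions found in db/db only were weak over the whole list as well, with a median percentile of 23.5. What share of all db/db-only or all shared regions this cut kept was not counted, so these counts are no result about crystallin genes. The region lost was the one upstream of Crybb3. The db/db-only region at the 5′ end of Crygn was not among those kept.

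**Figure D2:**
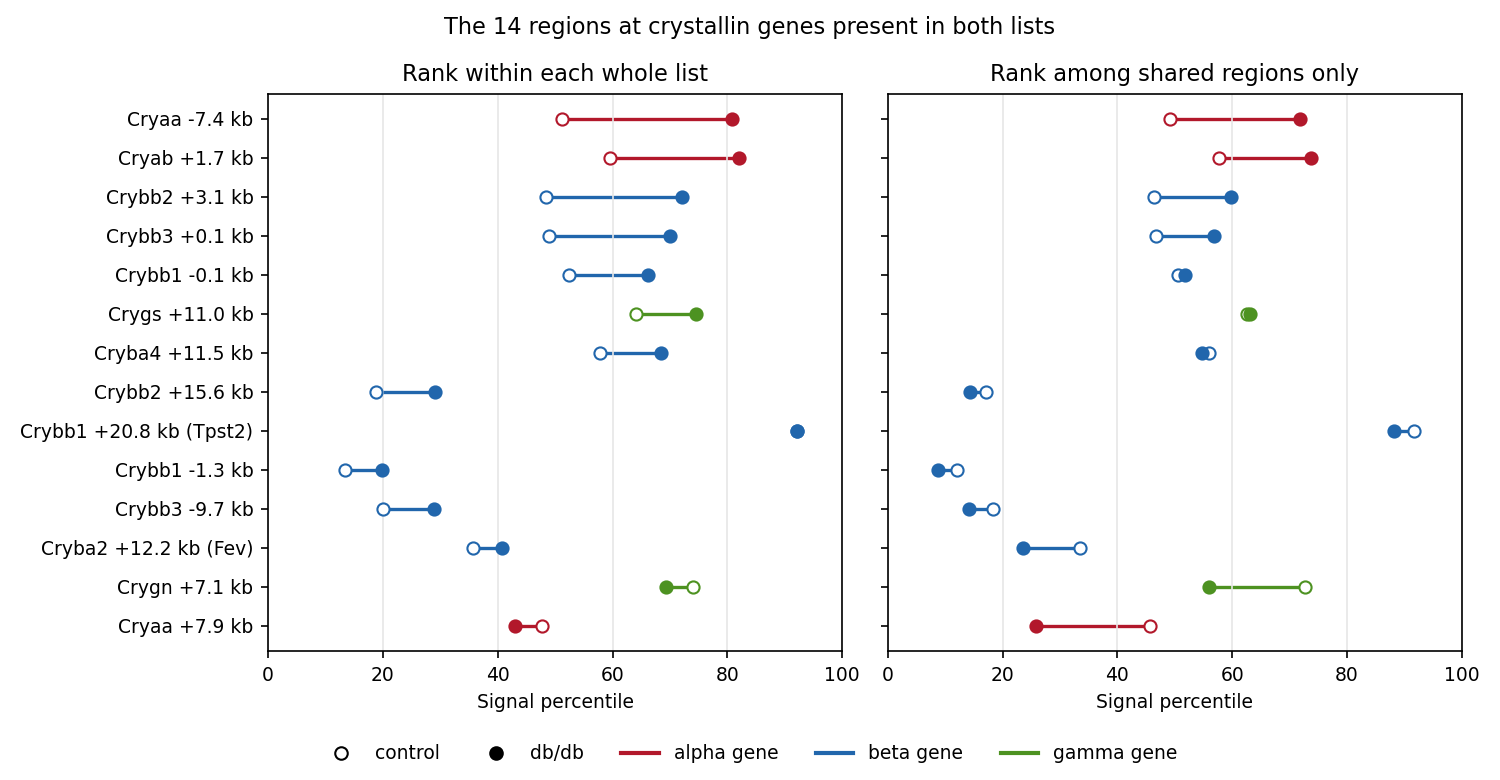
Signal percentiles of the 14 shared regions in control (open circles) and db/db (filled circles), ranked within each whole list (left) and among shared regions only (right), with red, blue and green for alpha, beta and gamma genes. Labels give the nearest crystallin gene, the distance in kb from its 5′ end and, in brackets, a nearer neighbouring gene; 11 of 14 regions rank higher in db/db on the left and 6 of 14 on the right.

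Ranks in the whole lists were not neutral between the genotypes. The db/db list holds more weak regions, and over all 43519 regions with a single partner in each list the percentile was higher in db/db for 85.3%, with a median change of 8.52 points. At crystallin genes it was higher for 11 of 14 regions, with a median change of 10.3 points. Of the 14, 8 gained at least 10 points, as did 44.6% of all shared regions, and 0 lost at least 10, as did 2.3%. The ranks were therefore repeated among the shared regions alone, where the median change over all was 0.087 points with an SD of 10.6 across regions.

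On this scale the crystallin regions divided, with 6 of 14 higher in db/db, 8 lower and a median change of -1.97 points. A gain of at least 10 points was seen for 4 regions, 28.6%, beside 13.3% of all shared regions, and a loss of at least 10 for 2, 14.3%, beside 12.8%. The gains were at the upstream region of Cryaa (49.1 to 71.8, a change of 22.7 points), the promoter of Cryab (57.7 to 73.8, 16.1 points), the intron of Crybb2 (46.4 to 59.8, 13.4 points) and the promoter of Crybb3 (46.7 to 56.8, 10.1 points). The losses were at the downstream region of Cryaa (45.7 to 25.8, a change of -19.9 points) and the 3′ region of Crygn (72.6 to 56.0, -16.6 points). The gain of the upstream region of Cryaa, picked here as the largest of the 14, was above the signed change of 97.9% of all shared regions. All 6 kept their direction, and a change of at least 10 points, when regions were ranked by −log10 q in place of signal. Both values come from the same deposited rows, and the 6 were picked by signal, so this is no independent check. The promoter of Crybb1, by contrast, stayed in place at 50.5 and 51.7.

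**Figure D3:**
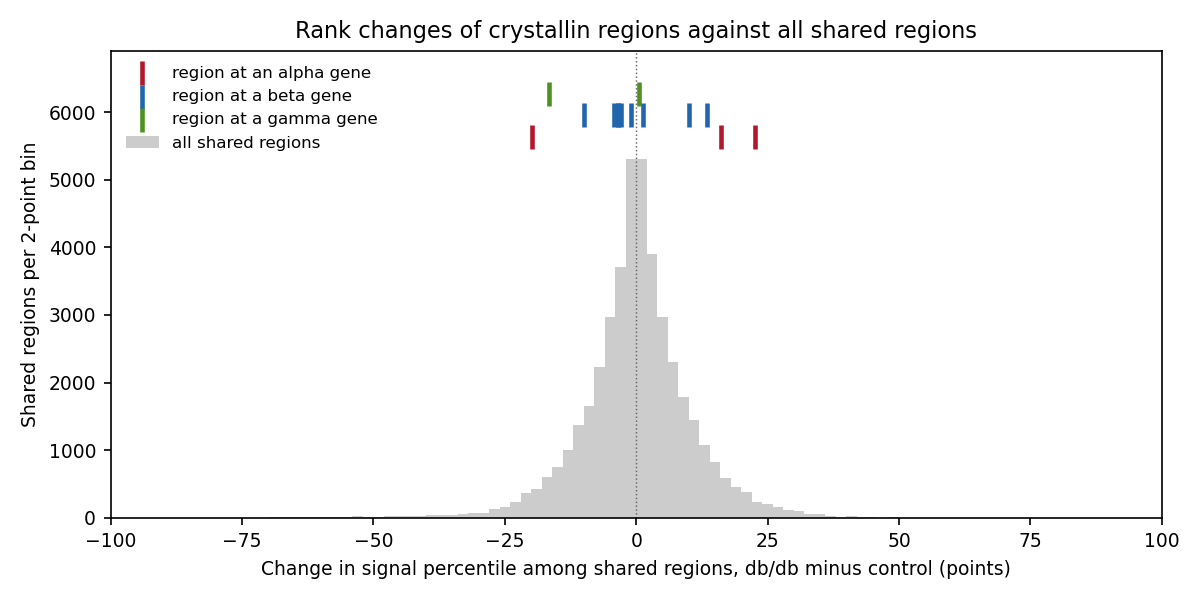
Change in percentile among shared regions, db/db minus control, in points. Grey bars count all 43519 shared regions in bins of 2 points, and coloured ticks are the regions at alpha (red), beta (blue) and gamma (green) genes, which run from -19.9 to 22.7 points.

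By class, the alpha genes had percentiles of 47.8 to 59.5 in control and 1.06 to 82.1 in db/db, and a median change among shared regions of 16.1 points over 3 regions, 2 of them higher. Regions in reach of the beta genes ran from 13.4 to 92.1 in control and from 11.8 to 92.1 in db/db. Both upper values were the Tpst2 promoter, and the region at 11.8 lay in the coding sequence of Fev. Among regions whose nearest coding start was a beta gene's, the highest were 57.8 in control (Cryba4) and 73.2 in db/db (Cryba1). The 9 shared regions of the beta genes had a median change of -2.86 points, and 3 were higher in db/db. For the gamma genes the percentiles were 64.2 and 74.0 in control and 29.5 to 74.5 in db/db, with a median change of -8.03 points over 2 regions, 1 of them higher. A promoter region was present at 1 of 2 alpha, 2 of 6 beta and 1 of 2 gamma genes in both lists. The changes of the classes overlapped: the 3 alpha regions ran from -19.9 to 22.7 points and so enclosed those of all beta and gamma regions.

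Promoter regions were rarer in lists of genes largely restricted to the lens than in those of small heat shock proteins, transcription factors and enzymes. Of 6 other gamma crystallin genes (Cryga to Crygf, of the lens fibre), none had a promoter region in control, and Crygd had one in db/db at percentile 44.4. Of 10 lens fibre genes 2 had a promoter region in control and 3 in db/db: Tdrd7 (percentiles 86.9 and 94.0), Bfsp2, a beaded filament gene (15.2 and 49.2), and, in db/db only, its partner Bfsp1 (71.0). Mip, Lim2 and Gja3, which encode membrane proteins of lens fibres, had none in either list. Among 8 genes with small heat shock protein names, 6 had one in control and 8 in db/db. Hspb1 and Hspb7 had theirs in db/db only, and that of Hspb3 was at 87.9 and 91.8. The one counted for Hspb2 is the Cryab promoter region itself (59.5 and 82.1), so this list is not separate from the members.

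Of 11 lens transcription factor genes, 9 had a promoter region in both lists, led by the heat shock factors Hsf1 (97.8 and 98.6) and Hsf2 (95.8 and 97.7). Most were weak: the median percentile over the 9 genes was 15.0 in control and 23.0 in db/db. For all coding genes with a promoter region it was 78.0 and 80.7. Sox2, which is also a Müller cell factor, was at 53.3 and 70.4, and Pax6 at 19.5 and 46.6, whereas Sox1 and Foxe3 had none. The 5 genes that carry a crystallin name but encode enzymes or their relatives, Cryl1, Cryz, Cryzl1, Cryzl2 and Crym, are unrelated to the members, and all had a promoter region in both lists, the strongest at Cryl1 (99.5 and 99.7).

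**Figure D4:**
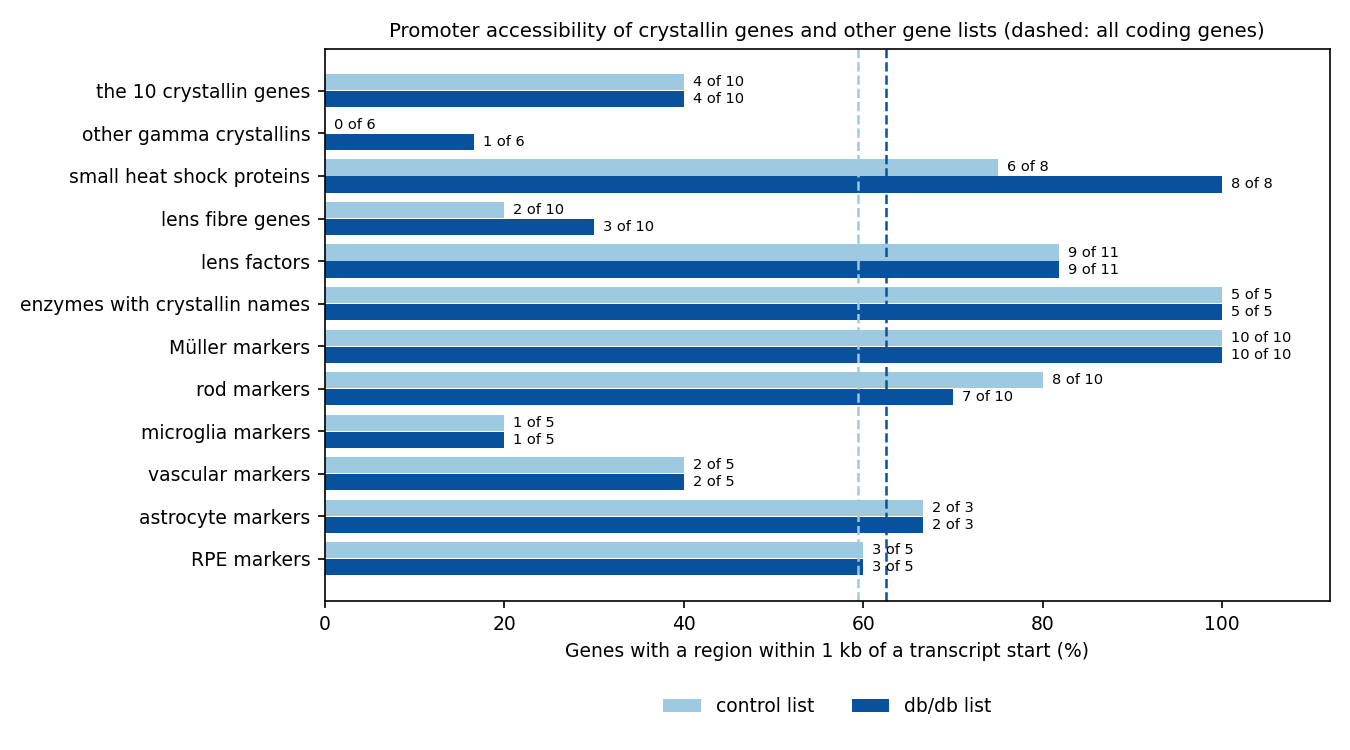
Share of genes (%) in each list with a region within 1 kb of a transcript start, in control (light bars) and db/db (dark bars), with counts at the bar ends. Dashed lines give all coding genes, 59.4% in control and 62.5% in db/db; the 10 crystallin genes stand at 4 of 10 in both.

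Marker genes were read in the same way. All 10 Müller cell markers, Glul, Sox9 and Vim among them, had a promoter region in both lists, at percentiles of 4.54 to 52.2 in control and 6.22 to 55.5 in db/db. Of 10 rod markers 8 had one in control and 7 in db/db. Their percentiles ran from 5.76 to 80.3 in control and from 1.85 to 75.7 in db/db. Pde6b and Cnga1 had theirs in control only and Rp1 in db/db only, and Crx, the photoreceptor factor gene, had 2 promoter regions in control, the stronger at 80.3, and 1 in db/db at 1.85. Within 10 kb of Crx the strongest region was at 80.3 in control and 94.2 in db/db. Microglia had 1 of 5 markers, vascular cells 2 of 5, astrocytes 2 of 3 and retinal pigment epithelium 3 of 5 in both lists. Rod markers thus differed between the genotypes beside the crystallin regions, and their part in the crystallin results was not tested.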

How the data were processed

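ATAC-seq was performed by the authors on purified Müller cells, and 1 narrowPeak list per genotype was used. Each deposited row gives a fold enrichment over background (ratio, column 7), called signal here, beside −log10 p and −log10 q values, a score and the offset of the summit; the build is mm10 according to the submitters' processing notes. The peak caller, its threshold and any pooling of replicates are not given in the sources used here, and the read depth is unknown, so values were ranked within a list.

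Overlapping rows (81757 control, 109995 db/db, on 19 autosomes, X and Y) were merged, keeping the row with the highest signal. Regions were placed by GENCODE M21. Promoters came from the RefSeq table. Python 3.11.15, pandas 2.3.3, numpy 2.4.6 and scipy 1.17.1 were used, and merging and pairing were tested on simulated data, where 800 of 800 regions placed in a single list were recovered. Those regions lay clear of all others, and simulated shared regions had the same edges in both lists. The simulation therefore checked the code and not the calls of shared and db/db-only regions in the real lists. All 10 members are named; from each other list the text names up to 4 genes with the highest control percentile at the promoter and those with a promoter region in a single list, and further genes that were chosen after their values were seen (Mip, Lim2, Gja3, Sox1, Foxe3, Crym). The members and lists were chosen with earlier results of these data known. No test was made; the protein sequences were not analysed here.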

Additional observations from a re-analysis of the deposited data

How the results depend on the processing

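Counts near crystallin genes depended on the window. Within 5 kb there were 9 control and 13 db/db regions, 4 of the latter in db/db only. Inside the genes themselves there were 5 and 7 regions at 5 and 5 genes, 2 of them in db/db only. With lists of equal numbers, 1 control region was absent from db/db and 2 db/db regions were absent from control. The matching shares over all regions of these reduced lists were not counted. The median change in percentile of shared regions was then -2.08 points, against 10.3 in the whole lists. Among shared regions only, a scale chosen after seeing the data, it was -1.97. When only the 5′ end of the gene counted, also chosen after seeing the data, 2 genes had a promoter region in control. The other 59 of 72 alternative values were counts within 1.5 times the main one or medians inside its interval, among them those with a −log10 q of at least 5, with the summit inside the window, with an overlap of 50% of the shorter region and with regions whose nearest coding start was a crystallin gene's.

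The median percentile of the regions was 50.0 in control (95% binomial interval 20.1 to 64.2) and 41.9 in db/db (28.9 to 72.1). These intervals treat the regions as independent draws, although some lie at neighbouring genes, and they say nothing of the spread between animals. The order of the lists was not stable: the medians were 48.9 and 66.1 within 5 kb, 50.0 and 57.0 with lists of equal numbers, 49.4 and 49.6 when ranked by −log10 q, and 50.0 and 54.6 by nearest coding start. With every deposited row counted there were 21 control and 31 db/db rows. No paired analysis was possible because there was 1 list per genotype and no test. Depth is unknown, so a region missing from a list and one below its threshold cannot be told apart.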
